A study of Cavia porcellus with 8 samples.

Results

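The Fc gamma receptor and the alpha chain of C4b-binding protein (C4BPA) were followed on 7 of the 13269 features of a guinea pig expression array. D13691, D13692 and D13693 carry the symbols GPIFCGRB1, GPIFCGRB2 and GPIFCGRB3, each described as an Fc-gamma-1/gamma-2 receptor precursor. AB049465, AB049466, AB049467 and AB049468 are features of C4BPA. The 7 features were taken by accession because both genes stayed high, or were higher still, with dexamethasone. They were thus chosen by their signals in NOR and DEX against CNT and in DEX against NOR, and these differences are described below without a test. Signals came from whole cochleae of male Hartley guinea pigs, with 1 array per animal. The NOR group had 3 animals with a normal electrode, the DEX group had 3 animals with a dexamethasone-eluting electrode, and the CNT group had 2 animals without surgery. Implanted cochleae were taken after 7 days. The animals' age is 8 weeks in the sample labels and 7 weeks in the protocol. The electrodes were silicone dummies without wires or contacts. Since CNT animals were not operated on, the effects of surgery and of the electrode itself cannot be told apart, and no group received dexamethasone without an electrode.

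Fc gamma receptors are membrane proteins of leukocytes that recognise the constant part of IgG. When IgG coats a particle, activating receptors of this family start phagocytosis and the release of mediators, whereas inhibitory members damp the same responses. C4b-binding protein circulates in plasma and limits activation of complement. Its alpha chains bind C4b, speed the decay of the classical pathway convertase and act as cofactor for the protease factor I. Dexamethasone is a synthetic glucocorticoid that lowers the transcription of many inflammatory genes.

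The deposited signals are linear intensities, and they fell into 2 sets of 4 arrays. Replicates 1 and 2 of NOR and DEX formed array set A, and replicate 3 of either electrode formed array set B together with the CNT animals. Within a set 2 arrays had 246 to 384 exactly equal values in common, against 30 to 52 between sets. The sets are named in neither the sample labels nor the methods, and they were found in the signals. Signals were quantile-normalized over all 8 arrays, and all levels below are normalized signals. With the set as a term of the model, 1617 features still differed between the sets at a limma adjusted p under 0.05. As both CNT animals were in set B, comparisons of the receptor and C4BPA features with CNT are also given within that set. The same is done for some of the other genes examined, but not for the counts. The number of arrays limits the precision. None of the features could be matched to a cochlear marker, so that the labelled tissue was not checked.

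Both implanted groups had several-fold more receptor signal than the cochleae without surgery. For GPIFCGRB1 (D13691) the normalized signal was 495 and 508 in the CNT animals, 2139, 1344 and 3049 in NOR replicates 1 to 3, and 3209, 4221 and 2438 in DEX replicates 1 to 3. All 6 implanted animals lay above both controls, while NOR and DEX overlapped because NOR replicate 3 exceeded DEX replicate 3. The group means were 501 ± 9.72 in CNT (SD, n = 2), 2177 ± 853 in NOR (SD, n = 3) and 3289 ± 894 in DEX (SD, n = 3).

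GPIFCGRB2 (D13692) had signals of 662 and 668 in CNT, of 2580, 1515 and 3481 in NOR and of 3640, 4638 and 3237 in DEX. The animals stood in the same order as for GPIFCGRB1, with NOR replicate 2 the lowest and DEX replicate 2 the highest of the implanted animals. GPIFCGRB3 (D13693), a much dimmer feature, had 26.9 and 21.0 in CNT, 73.4, 98.9 and 160 in NOR and 183, 262 and 117 in DEX. Here NOR replicate 1 was the lowest implanted animal, and the remaining order from DEX replicate 3 upward was that of the other 2 receptor features.

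**Figure D1:**
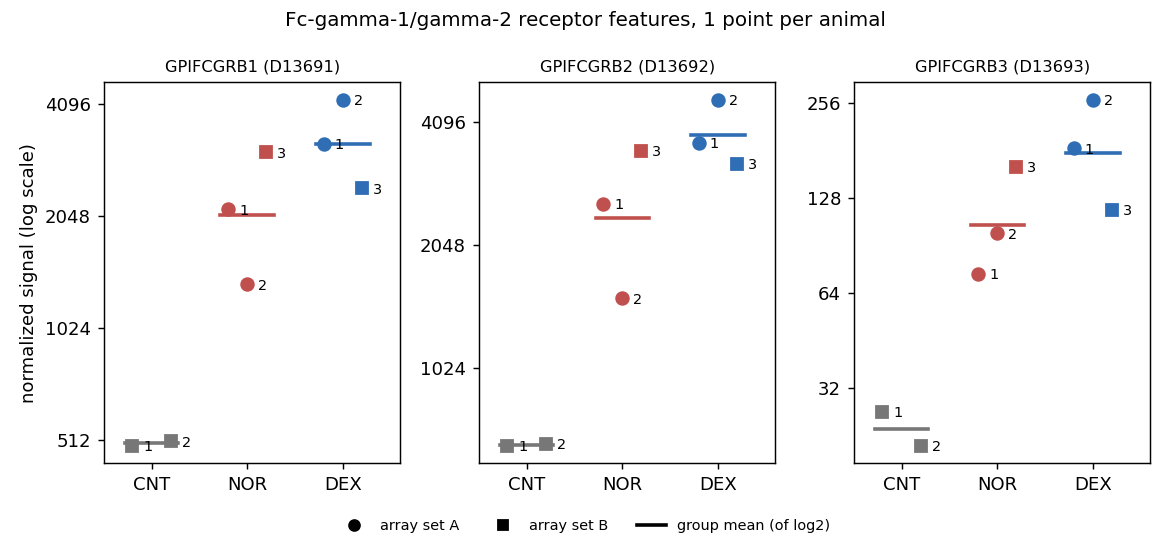
Normalized signal (log scale) of the 3 Fc-gamma-1/gamma-2 receptor features in each of the 8 animals, numbered by replicate, with circles for array set A, squares for array set B and lines for group means of the log2 signals. All NOR and DEX animals lie above the CNT animals, DEX replicates 1 and 2 lie highest, and DEX replicate 3 lies below NOR replicate 3 in every panel.

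On the log2 scale the difference between NOR and CNT was 2.04 (SE 0.34) for GPIFCGRB1, 1.84 (SE 0.32) for GPIFCGRB2 and 2.15 (SE 0.39) for GPIFCGRB3, or 4.11-, 3.59- and 4.43-fold. Between DEX and CNT the differences were 2.68 (SE 0.34), 2.51 (SE 0.32) and 2.90 (SE 0.39), or 6.40-, 5.71- and 7.49-fold. The mean of the 3 features was 4.03-fold above CNT in NOR and 6.49-fold above CNT in DEX. These standard errors come from the limma model of all 3 groups. The spread among the implanted animals was far wider than that between the 2 controls. Within array set B, which holds the controls, NOR replicate 3 was 6.08-, 5.24- and 6.74-fold above them in the same order of features. DEX replicate 3 was 4.86-, 4.87- and 4.94-fold higher.

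In 3 of its 4 features C4BPA stood farther above the cochleae without surgery than the receptor did. Its brightest feature, AB049465, had normalized signals of 19.9 and 17.1 in CNT, of 131, 285 and 394 in NOR replicates 1 to 3, and of 358, 310 and 509 in DEX replicates 1 to 3. NOR replicate 1 stood well below the other implanted animals, and DEX replicate 3 was the highest. The group means were 18.5 ± 2.02 in CNT (SD, n = 2), 270 ± 132 in NOR (SD, n = 3) and 392 ± 104 in DEX (SD, n = 3).

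AB049466 had 21.7 and 16.9 in CNT, 124, 281 and 387 in NOR and 328, 264 and 471 in DEX. AB049467 had 21.3 and 16.2 in CNT, 128, 278 and 382 in NOR and 342, 300 and 435 in DEX. NOR replicate 1 was again the lowest implanted animal and DEX replicate 3 the highest in both features. The control signals of these 3 features were low for the array, since between 12.4% and 18.3% of all features were dimmer on the same arrays. In the implanted animals between 38.9% and 53.8% were dimmer.

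AB049468 was much dimmer than the other C4BPA features. Its signals were 5.88 and 5.64 in CNT, 9.32, 13.8 and 10.7 in NOR and 12.7, 9.62 and 12.3 in DEX. It was among the dimmest features of the array, with 0.415% and 0.505% of features dimmer in the controls and between 3.23% and 9.35% in the implanted animals. All its signals were under 20, the floor used as an alternative, at which its differences become 0. Its fold changes below are those of a signal near the bottom of the scale and cannot be set against those of the bright features. All 6 implanted animals were still above both controls, and NOR replicate 2 rather than DEX replicate 3 was the highest.

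**Figure D2:**
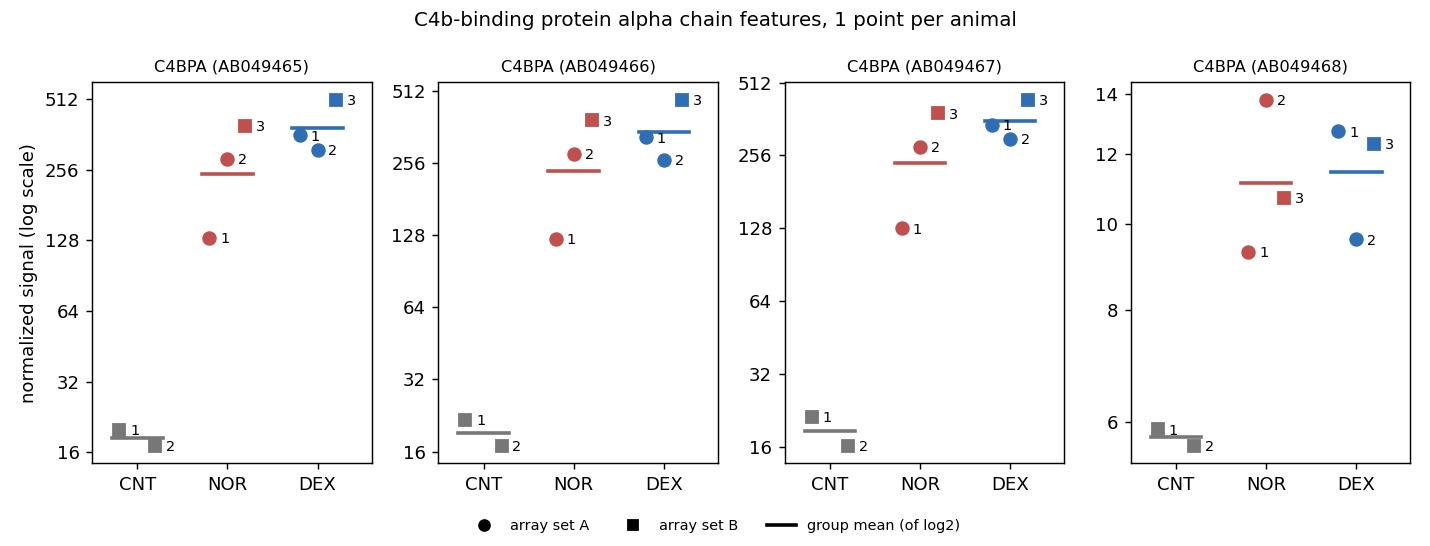
Normalized signal (log scale, own range in each panel) of the 4 C4BPA features in each of the 8 animals, numbered by replicate, with circles for array set A, squares for array set B and lines for group means of the log2 signals. In AB049465, AB049466 and AB049467 the implanted animals range from 124 to 509 against 16.2 to 21.7 in CNT, and in AB049468 they range from 9.32 to 13.8 against 5.64 to 5.88.

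The log2 difference between NOR and CNT was 3.73 (SE 0.43) for AB049465, 3.63 (SE 0.45) for AB049466 and 3.69 (SE 0.41) for AB049467, which corresponds to 13.3-, 12.4- and 12.9-fold. AB049468 differed by 0.95 (SE 0.19), or 1.93-fold. Between DEX and CNT the bright features differed by 4.38, 4.17 and 4.26, or 20.8-, 18.0- and 19.1-fold, and AB049468 by 0.99, or 1.99-fold, with the same errors. Within array set B, NOR replicate 3 was 21.4-, 20.2- and 20.6-fold above the controls in the bright features and 1.86-fold in AB049468. DEX replicate 3 was 27.6-, 24.6- and 23.5-fold above them, and 2.14-fold in AB049468.

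The study's methods treat the probes of a gene as 1 gene. Its list nevertheless keeps the receptor features apart, and holds another C4BPA entry with the deposited averages of AB049468 alone. The 4 C4BPA features were also averaged on the linear scale here, an alternative added after the data were seen. The averaged signal was 13.0-fold higher in NOR than in CNT, 17.9-fold higher in DEX than in CNT and 1.38-fold higher in DEX than in NOR. AB049468 adds little to this linear average. Its own linear ratios were 1.96, 2.00 and 1.02.

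In all 7 features every NOR animal was above every CNT animal, which held for 25.5% of all features of the array, and every DEX animal was above every CNT animal, which held for 25.4%. A difference of 2-fold or more from CNT was present in 6 of the 7 features in NOR, against 1.75% of all features, and in 6 of the 7 in DEX, against 1.5%. The exception was AB049468, just under the limit at 1.93-fold in NOR. This call turned with the scaling, since its log2 difference between NOR and CNT was 1.05 in the signals as deposited and 1.17 after cyclic loess, which makes it 7 of 7, and in DEX it was 1.11 and 1.25. The lowest feature above the limit in NOR was GPIFCGRB2 at 3.59-fold. The median log2 difference of the 7 features from CNT was 2.15 in NOR and 2.90 in DEX, and that of all features was 0.01 in both. These contrasts chose the features, so that the counts are a description.

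**Figure D3:**
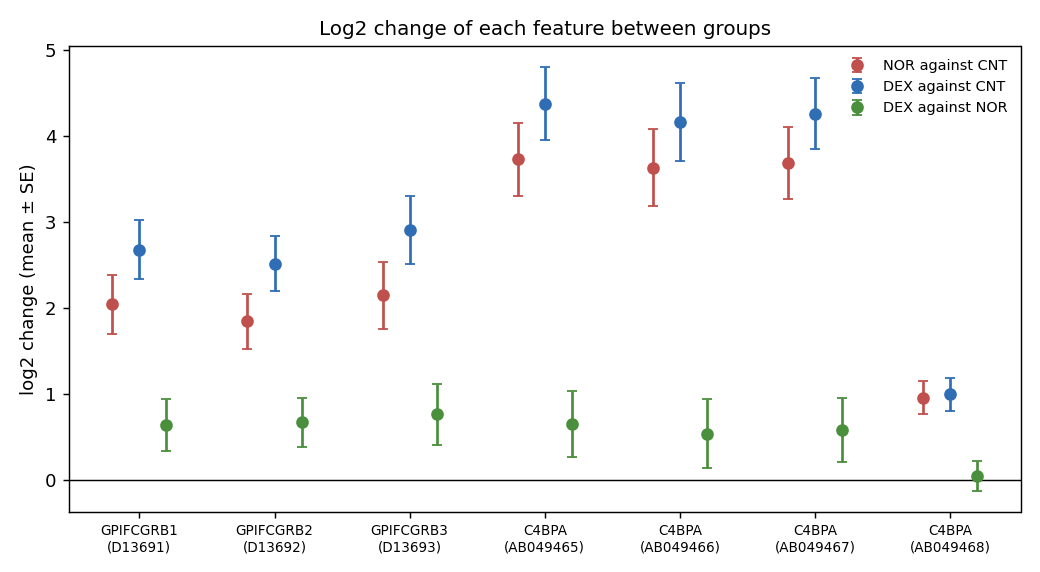
Log2 change (vertical axis) of each of the 7 features in NOR against CNT, DEX against CNT and DEX against NOR, as means with the standard errors of the limma model. The receptor features lie between 1.84 and 2.90 against CNT, the 3 bright C4BPA features between 3.63 and 4.38, and AB049468 near 1, and the DEX against NOR differences lie between 0.04 and 0.76.

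How closely features of a gene followed each other was measured by the root mean square difference of their log2 profiles over the 8 arrays, each centred on its own mean. GPIFCGRB1 and GPIFCGRB2 differed by 0.11 and were each other's nearest of the 13268 other features. GPIFCGRB3 differed from GPIFCGRB1 by 0.32 and from GPIFCGRB2 by 0.39, and ranked at place 3 and place 4 among their neighbours. A feature without a gene name, AX781434, was nearer to both of them, at 0.31 and 0.24. For GPIFCGRB3, CCL2 was nearer, at 0.34, than GPIFCGRB2. AB049465, AB049466 and AB049467 differed from each other by 0.08 to 0.10, and each had the other 2 as its nearest features. The nearest feature outside the gene was much farther from AB049465, at 0.68. AB049468 differed from the bright features by 1.35 to 1.41. It ranked between place 133 and place 139 among their neighbours, and they ranked between place 13211 and place 13223 among its own. The signals of AB049468 lay near the bottom of the scale on all 8 arrays. Its distances and ranks therefore cannot decide whether it followed the other C4BPA features. Features of near-identical transcripts can share labeled cDNA, and the sequences behind these features were not used here. Like profiles may therefore not be independent measurements of a gene, and this was not tested.

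In each implanted animal the log2 differences of the 3 receptor features from CNT spanned between 0.02 and 0.87. The widest span was in NOR replicate 2, where GPIFCGRB2 was 1.19 and GPIFCGRB3 2.06 above the control mean, and the narrowest was in DEX replicate 3. The 3 bright C4BPA features spanned only 0.08 to 0.29.

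The receptor and C4BPA ranked the implanted animals differently. The mean receptor signal was 3.71-, 2.94- and 5.99-fold above the control mean in NOR replicates 1 to 3, and 6.47-, 8.65- and 4.89-fold above it in DEX replicates 1 to 3. C4BPA (AB049465) was 7.10-, 15.5- and 21.4-fold above the control mean in NOR and 19.4-, 16.8- and 27.6-fold above it in DEX. DEX replicate 2 was thus the highest animal for the receptor but lay below DEX replicates 1 and 3 and NOR replicate 3 for C4BPA. DEX replicate 3 was the highest for C4BPA but lay below DEX replicates 1 and 2 and NOR replicate 3 for the receptor.

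**Figure D4:**
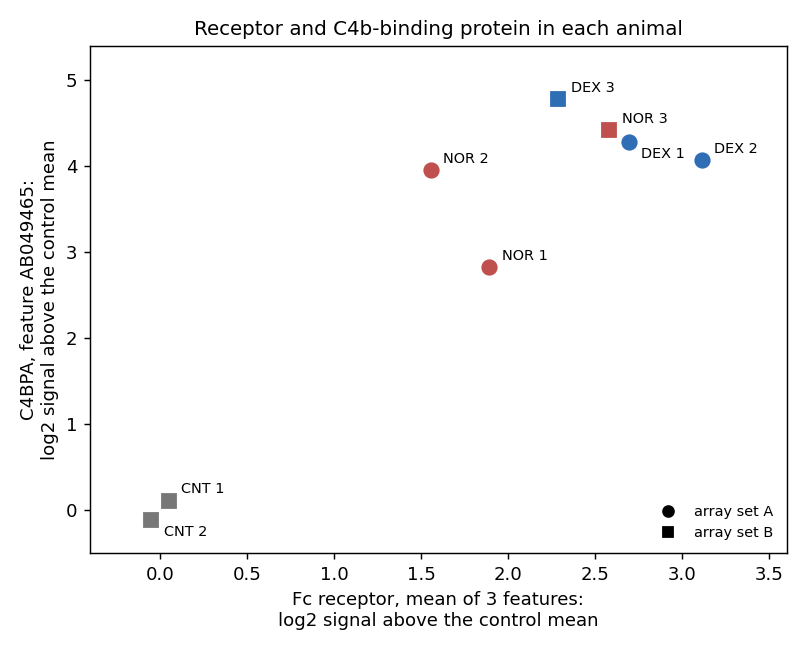
Log2 signal above the control mean in each animal, for the mean of the 3 receptor features (horizontal axis) and for C4BPA feature AB049465 (vertical axis), with circles for array set A and squares for array set B. The implanted animals lie between 1.56 and 3.11 for the receptor and between 2.83 and 4.78 for C4BPA, and their order differs between the axes.

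Dexamethasone elution was next compared with the normal electrode. The DEX group had more signal than NOR in the mean of every receptor and bright C4BPA feature, yet animals of the 2 groups overlapped in all 7. Of the 3 pairs of animals with the same replicate number, DEX was higher in all 3 for AB049465 (by 1.45, 0.12 and 0.37 on the log2 scale in replicates 1 to 3) and AB049467 (by 1.42, 0.11 and 0.19). DEX was higher in 2 of 3 pairs for each of the other features, with the receptor features lower in replicate 3 and AB049466 and AB049468 lower in replicate 2. The log2 difference was 0.64 (SE 0.30) for GPIFCGRB1, 0.67 (SE 0.29) for GPIFCGRB2 and 0.76 (SE 0.35) for GPIFCGRB3, or 1.56-, 1.59- and 1.69-fold. It was 0.65 (SE 0.38) for AB049465, 0.53 (SE 0.40) for AB049466 and 0.57 (SE 0.37) for AB049467, or 1.57-, 1.45- and 1.49-fold. AB049468 differed by 0.04 (SE 0.17), or 1.03-fold. Thus 6 of the 7 features were 1.25-fold or more higher in DEX, against 3.4% of all features, with AB049466 the nearest above that limit and AB049468 below it. Without NOR replicate 1 the count was 3, those of the receptor, without DEX replicate 3 it was 5, and within array set B it was 1. In 0 of the 7 were all DEX animals above all NOR animals, against 2.64% of all features. Over the whole array limma called 0 features between DEX and NOR, with 329 features (2.48%) at an unadjusted p under 0.05, and the methods' t-test gave 0 after Benjamini-Hochberg adjustment. The 329 became 605 without NOR replicate 1, 641 with the replicate block and 696 with the array set as a term. It became 203 without the dimmest 25% of features.

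The 2 array sets gave opposite directions for the receptor. In set A both DEX animals were above both NOR animals in all 3 receptor features. The mean difference there was 1.12 for GPIFCGRB1, 1.06 for GPIFCGRB2 and 1.36 for GPIFCGRB3 on the log2 scale, or 2.17-, 2.08- and 2.57-fold. Set B has 1 animal of each electrode and thus no replicates, and its DEX animal was below the NOR animal by a log2 difference of -0.32, -0.10 and -0.45 in the same order. The mean over the 3 features was 1.18 in set A and -0.29 in set B. Leaving out NOR replicate 3 brought the mean difference over all animals from 0.69 to 0.97, and leaving out NOR replicate 2 brought it to 0.46. Without DEX replicate 2 it was 0.48. By feature, the lowest values were 0.33 for GPIFCGRB1 and 0.34 for GPIFCGRB2, both without NOR replicate 2. For GPIFCGRB3 it was 0.48, without DEX replicate 2. The highest were 0.92, 0.94 and 1.06 in the same order, without NOR replicate 3. In the signals as deposited the set A differences were 1.07, 1.03 and 1.39 and the set B differences -0.34, -0.12 and -0.49. These directions were the same as after normalization.

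For C4BPA the bright features were higher in DEX in both sets. In set A the mean log2 difference was 0.79 for AB049465, 0.66 for AB049466 and 0.76 for AB049467, and in set B it was 0.37, 0.29 and 0.19. Much of the difference rested on NOR replicate 1. Without this animal the difference over all animals fell from 0.65 to 0.19 in AB049465, from 0.53 to 0.06 in AB049466 and from 0.57 to 0.12 in AB049467. Without NOR replicate 3 it was 0.99, 0.89 and 0.91. AB049468 had differences of -0.04 in set A and 0.20 in set B.

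Both DEX animals of set A were above both NOR animals in 5 of the 7 features, against 14.5% of all features. The exceptions were AB049466, where DEX replicate 2 was below NOR replicate 2, and AB049468. Higher signals in DEX in set A together with lower ones in set B were found for the 3 receptor features and for 25% of all features. By 1.25-fold or more in both directions, this pattern was seen in GPIFCGRB1 and GPIFCGRB3, against 0.844% of all features. AB049465 was the only one of the 7 features that was higher by 1.25-fold or more in both sets, which held for 0.565% of all features.

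Genes of leukocytes and of the same response were examined beside the receptor and C4BPA. The list held C3AR1 (receptor of the complement peptide C3a), CD18, CYBA (a subunit of the phagocyte NADPH oxidase), GPR34 and LTB4R (leukotriene B4 receptor). It also held IL15Ra, TLR3, MHC class II, CD8 alpha, CD8 beta, and the chemokines CCL2 and CXCL1. CD18 is the study's symbol for an entry that it describes as leukocyte adhesion glycoprotein Mo1-alpha. These 12 genes had 15 features. As the study chose them on these arrays for their higher signal in NOR, their counts are not independent evidence of that direction. CCL2 and CXCL1 were listed also because the study reported them as higher still in DEX on these arrays. Their differences between DEX and NOR are therefore a description too. The comparisons of NOR and of DEX with CNT use the same CNT arrays. Between NOR and CNT limma called 8 of the 15 features higher at an adjusted p under 0.05 and 2-fold or more, against 1.34% of all features, and 0 lower, against 1.27%. Between DEX and CNT it called 7 higher, against 0.957%, and 0 lower, against 0.821%. Without CNT replicate 1 both counts were 0, and without CNT replicate 2 they were 2 and 1. Without NOR replicate 2 they were 3 and 4, and without DEX replicate 1 or 2 the DEX count was 1.

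CCL2, a chemokine that draws monocytes, had a difference from CNT of similar size to that of the receptor. It rose by 2.41 (SE 0.42, limma adjusted p = 0.0194) in NOR and by 2.78 (SE 0.42, limma adjusted p = 0.0191) in DEX on the log2 scale, against CNT. CCL2 was also higher in DEX than in NOR in set A, by 0.86, and lower in set B, at -0.62. GPR34 rose in both its features, by 1.42 and 1.22 in NOR (limma adjusted p = 0.0168 and 0.0278). CXCL1, a neutrophil chemoattractant, rose by 1.88 in DEX (SE 0.32, limma adjusted p = 0.0249), and its difference between NOR and CNT was 1.25 (SE 0.32, limma adjusted p = 0.0521). The C3AR1 features, for a receptor on the complement side, differed by 0.77 and 1.01 between NOR and CNT (limma adjusted p = 0.0852 and 0.0683). Within array set B, NOR replicate 3 was above the controls by 2.53 for CCL2, 1.80 and 1.55 for GPR34 and 1.44 for CXCL1. It was above them by 1.20 and 1.62 for C3AR1 and by 1.46 for MHC class II. DEX replicate 3 was above them by 1.90 for CCL2, 1.14 and 0.88 for GPR34 and 1.91 for CXCL1. For C3AR1 it was above them by 0.59 and 0.76, and for MHC class II by 0.78. LTB4R and MHC class II had less mean signal with the dexamethasone electrode than with the normal one in either array set, as had CYBA, TLR3, CD8 alpha and CD8 beta. In set A the last 4 genes differed by only -0.07, -0.13, -0.08 and -0.05. The SD over all features was 0.19 there. Of these genes only MHC class II had both DEX animals below both NOR animals in set A. The share of all features lower in both sets was not counted. The LTB4R features had DEX minus NOR differences of -0.82 (SE 0.37) and -0.72 (SE 0.34), with -0.24 for both in set A and -1.96 and -1.68 in set B. MHC class II rose by 1.25 in NOR against CNT (limma adjusted p = 0.00970), and its DEX minus NOR difference was -0.45 (SE 0.15), with -0.34 in set A and -0.69 in set B. The limma adjusted p of these DEX against NOR differences was 1.

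In set B the DEX animal was below the NOR animal in 14 of these 15 features, against 50.9% of all features, and the exception was CXCL1. This compares 1 animal with 1 and has no replicates. NOR replicate 3 was among the animals on which the list was chosen, so that the count is a description. The part of that choice in the count was not tested. The median log2 difference of the 15 features was -0.62 in set B and 0.23 in set A, and that of all features was -0.01 and 0.00. For the 7 receptor and C4BPA features the medians were 0.19 and 0.79.

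**Figure D5:**
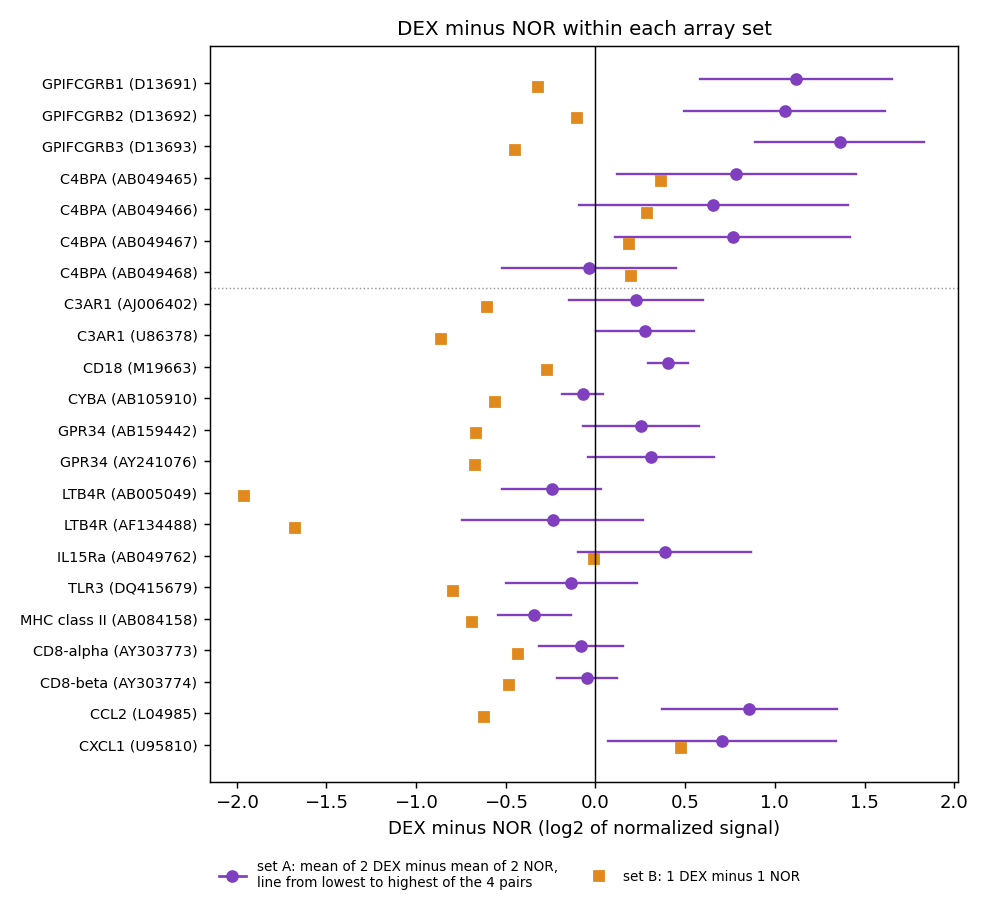
DEX minus NOR on the log2 scale within array set A (circles, mean of 2 DEX minus mean of 2 NOR animals, lines from the lowest to the highest of the 4 pairs) and within array set B (squares, 1 animal each), for the 7 features and, under the dotted line, the 15 comparison features. The receptor features lie at 1.06 to 1.36 in set A and at -0.45 to -0.10 in set B, whereas the bright C4BPA features lie above 0 in both sets.

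Leukocyte markers had more signal in the implanted groups than in CNT. For C3AR1, CD18, CYBA, GPR34, MHC class II, CD8 alpha and CD8 beta, every NOR animal and every DEX animal was above both CNT animals in all 9 features, as in 25.5% of all features for NOR and 25.4% for DEX. Limma called 5 of the 9 higher in NOR than in CNT, against 1.34% of all features, and 4 of the 9 higher in DEX than in CNT, against 0.957%. These features belong to the list that the study chose for its signal in NOR, of which 0 features were called without CNT replicate 1. Between DEX and NOR limma called 0. All DEX animals were above all NOR animals in 0 of the 9, against 2.64% of all features. They were below them in 1, for which no share over all features was counted. Their summed signal was 5960 and 6372 in CNT, and higher in all implanted animals. By animal the sum was 11075, 10709 and 16629 in NOR replicates 1 to 3 and 10248, 11542 and 10568 in DEX replicates 1 to 3. The brightest features, those of C3AR1, CYBA and MHC class II, made up most of this sum. None of the 9 features was at 0 in any animal, and their lowest signal was 45.7. In whole cochleae more leukocytes and more RNA per leukocyte cannot be told apart, and the part of leukocyte number in the receptor and C4BPA signals was not tested.

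Features outside the 2 genes with the most similar profiles were sought with the same root mean square difference over the 8 arrays. The nearest to the mean receptor profile were AX781434, at 0.34, and EL939291, at 0.39. Their differences from CNT were 1.69 and 1.41 in NOR and 2.03 and 1.93 in DEX on the log2 scale, smaller than those of the receptor. The nearest to AB049465 were EL937553, at 0.68, and EL943880, at 0.78. EL937553 differed from CNT by 3.65 in NOR and 3.23 in DEX, and EL943880 by 2.36 and 2.93. The files pair none of these 4 accessions with a gene name.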

How the data were processed

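Labeled cDNA of each cochlea was hybridized to a 1-color NimbleGen guinea pig array, and signals were extracted with Agilent software. The deposited values are linear intensities, 1 for each feature and array, and normalization between arrays is not described in the methods. The submitters' processing notes name RMA without its role. Features are named by accession, and 0 of them matched the RefSeq gene table of assembly mCavPor4.1. Names of the receptor and C4BPA features were given with the series, and those of the 12 comparison genes were found by matching the study's group averages to features or to averages of 2 features. Members and lists were chosen with earlier results of these data known. Fc receptor family and complement lists needed named features and could not be used as whole lists. C4BPA and C3AR1 of the complement list had named features and are given above.

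Between arrays, quartiles of log2 signal lay up to 0.39 apart, above the limit of 0.05, and the arrays were quantile-normalized. One limma model of CNT, NOR and DEX was fitted to all 13269 features of the 8 arrays with Benjamini-Hochberg adjustment (R 4.3.3, limma 3.58.1). It was also run on simulated data with shifts in NOR and no array sets, and only NOR against CNT was checked. That run does not bear on the array sets or on DEX against NOR. Replicate numbers are shared by the groups. Residuals of NOR and DEX animals with the same number correlated at 0.22, 0.36 and 0.53 across features, all over the limit of 0.1 for a pairing, and those with different numbers at 0.20 and 0.33 inside set A and at -0.44 to -0.27 from one set to the other. The labels name no shared batch, and the block was kept as an alternative. All 7 members, all comparison genes that could be matched, and the 2 features nearest in profile to each gene are named. The C4BPA feature with the highest mean log2 signal, AB049465, stands for the gene where 1 value is given. The animals are separate samples, and the small groups limit every error given.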

Additional observations from a re-analysis of the deposited data

How the results depend on the processing

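The differences of the mean receptor signal and of AB049465 from CNT kept their direction under all alternatives tried. These were cyclic loess, median centring, no normalization, a floor of 20, ratios of linear averages, the array set as a term, the replicate block, the values within a set and leaving out single animals. With any 1 animal left out, the mean receptor difference lay between 1.73 and 2.23 (NOR against CNT), 2.48 and 2.91 (DEX against CNT) and 0.46 and 0.97 (DEX against NOR). That of AB049465 lay between 3.41 and 4.15, 4.21 and 4.52, and 0.19 and 0.99. Within array set B the NOR difference from CNT was 2.58 for the receptor and 4.42 for AB049465. DEX against NOR for the receptor was 1.18 within set A and turned to -0.29 within set B, with -0.32 for D13691, -0.10 for D13692 and -0.45 for D13693. For AB049468 it turned to -0.036 within set A, and lay between -0.087 (without NOR replicate 1) and 0.20 (without NOR replicate 2) with single animals left out, also turning without DEX replicate 1 (-0.033) and without DEX replicate 3 (-0.0094), and the floor of 20 lies above all its signals. The replicate block gave 1.97 and 2.66 for the receptor and 3.46 and 4.11 for AB049465 against CNT. It left the DEX against NOR differences as they were, as both groups hold replicates 1 to 3. With it, features at a limma unadjusted p under 0.05 between DEX and NOR went from 329 to 641.

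Counts over the whole array moved more. Of 347 features called in NOR against CNT, a floor of 20 gave 214, the array set as a term 724, the replicate block 503 and the methods' t-test 0 after adjustment (284 before it). With single animals left out the count lay between 90 (without CNT replicate 1) and 373, and was 97 without CNT replicate 2, 154 without NOR replicate 2 and 227 without DEX replicate 1. For DEX against CNT the count of 236 became 149, 522, 419 and 1 under the same settings, and 36 (without CNT replicate 1) to 300 with single animals left out, with 56 without CNT replicate 2, 150 without NOR replicate 2, 72 without DEX replicate 1 and 83 without DEX replicate 2. A control left alone was taken to vary as much as animals of NOR and DEX. Leaving out the dimmest 25% of features gave 351 and 263, and trend and robust variances 383 and 277. For DEX against NOR the methods' t-test gave 10 before adjustment, and every limma setting gave 0. The 8 comparison features called in NOR against CNT became 14 with the signals as deposited, 5 with the floor and 0 with the adjusted t-test, and 0 to 9 with single animals left out. The 7 called in DEX against CNT became 2 with the t-test and 0 after its adjustment, and 0 to 7 with each animal left out. Median centring moved NOR against CNT from 178 higher and 169 lower features to 128 and 336, and the signals as deposited to 295 and 124. DEX against CNT moved from 127 and 109 to 89 and 126, and to 173 and 57. The cause of these changes was not tested.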
